A study of Homo sapiens with 6 samples.

Results

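miR-140 is a microRNA (miRNA) made from 1 hairpin, MIR140, and both arms of that hairpin, miR-140-5p (MIMAT0000431) and miR-140-3p (MIMAT0004597), had a probe on the array, named hsa-miR-140-5p and hsa-miR-140-3p there. These 2 of the 2019 human probes were taken by name. They were taken up with the cisplatin difference of these arrays already known, so their differences between the groups are given as a description and support no claim. The cells were HuH7, an established line from a human hepatocellular carcinoma. They were left without drug (control, 3 arrays) or received 1 µg/ml cisplatin, a platinum drug that crosslinks DNA, for 24 h (cisplatin, 3 arrays). Total RNA was labelled with Hy5 and hybridised to arrays with 1 spot per miRNA. The labels number the samples from 1 to 3 in each group and do not say that they were separate cultures, so any spread between them may be technical. No allele or other agent distinguishes the groups, and all 6 samples are of 1 cell line.

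The labelled cell type was checked against its markers. All 4 listed liver probes (miR-122-5p, miR-192-5p, miR-194-5p and miR-148a-3p) were above the blank-spot limit on all 6 arrays, and miR-122-5p, the main miRNA of hepatocytes, had a raw signal of 4337 to 5169. None of the 6 blood cell or 4 neural probes was above the limit on all arrays of a group. Of 8 endothelial, stromal and muscle probes, 3 were above it on all 6 arrays (miR-126-3p, miR-143-3p and miR-145-5p), and none had a raw signal over 346. The blank-spot limit is the mean of the 925 blank spots of an array plus 2 SD, and it lay between 209 and 247. The arrays had 329 to 738 human probes above it, fewest on cisplatin replicate 2.

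A miRNA hairpin is cut to a short duplex, from which either arm can be loaded into an Argonaute protein and guide it to messenger RNAs that pair with its seed, the bases near the 5′ end. miR-140 is best known from cartilage, where SOX9 supports its expression and where its loss disturbs skeletal growth. Its hairpin lies in an intron of WWP2, which encodes a ubiquitin ligase, and is transcribed in the same direction. The 5p arm is known to target HDAC4, a histone deacetylase, and ADAMTS5, a protease of cartilage matrix. The 3p arm is unusual in that it is often the more abundant arm in tissue, and part of it is found with a shifted 5′ end, which an array probe does not separate from the annotated form. In liver cancer the 5p arm has been studied as a miRNA with lower levels in tumour than in adjacent tissue.

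The hairpin and both arms are shown because their sequence sets what each probe can bind. Sequences and coordinates are from RefSeq (GRCh38.p14). In the hairpin, at chr16:69933081-69933180 on the plus strand, the capitals mark the 5p arm and then the 3p arm. In the arms the capitals mark the seed (bases 2 to 8).
MIR140 hairpin: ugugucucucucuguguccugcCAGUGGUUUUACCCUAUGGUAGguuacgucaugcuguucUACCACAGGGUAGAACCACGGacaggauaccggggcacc
miR-140-5p: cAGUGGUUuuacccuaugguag
miR-140-3p: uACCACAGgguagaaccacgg
The 5p arm lies at chr16:69933103-69933124 and the 3p arm at chr16:69933142-69933162, with 17 bases between them. The hairpin lies inside WWP2 (chr16:69762332-69941739, plus strand), 170749 bases from the gene's first base and 8559 bases from its last. The arms are close to complementary. Set against each other without gaps, 21 positions of the 5p arm face the 3p arm, of which 18 form Watson-Crick pairs and 1 a G-U pair, with an unbroken run of at most 6 Watson-Crick pairs. The GC content is 45.5% in the 5p arm and 57.1% in the 3p arm, against a median of 50% for the 1688 human probes whose name matched a RefSeq mature sequence.

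The seeds of the arms differ, so each would guide to its own set of messages. None of the other human mature miRNAs in the RefSeq table had bases 2 to 8 of either arm. Bases 2 to 7 of the 5p arm were shared by miR-203b-5p and miR-6718-5p, which are shown, with these bases in capitals, because both had a probe.
miR-203b-5p: uAGUGGUccuaaacauuucaca
miR-6718-5p: uAGUGGUcagagggcuuauga
Neither was above the blank-spot limit on any array, with raw signals of 197 to 233 for miR-203b-5p and 178 to 238 for miR-6718-5p. Among probes with a matched sequence, miR-140-5p was thus the 1 carrier of these bases above the limit in HuH7.

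Both arms of miR-140 were detected in every sample, but dimly. The raw signal of miR-140-5p (pixel median of the spot, in scanner units) was 288, 330 and 359 in control replicates 1, 2 and 3 and 269, 344 and 302 in cisplatin replicates 1, 2 and 3. The cisplatin values lay within or just below the range of the control values, so the groups overlapped. The raw signal of miR-140-3p was 277, 327 and 319 in the control arrays and 269, 304 and 302 in the cisplatin arrays. Here the cisplatin array was the dimmer one of all 3 same-numbered pairs (differences of -8, -23 and -17 units), while the groups again overlapped. For miR-140-5p the pair differences were -19, 14 and -57 units, so replicate 2 went the other way. Among the 324 tested probes, 16.4% had a lower raw signal after cisplatin in all 3 pairs.

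**Figure D1:**
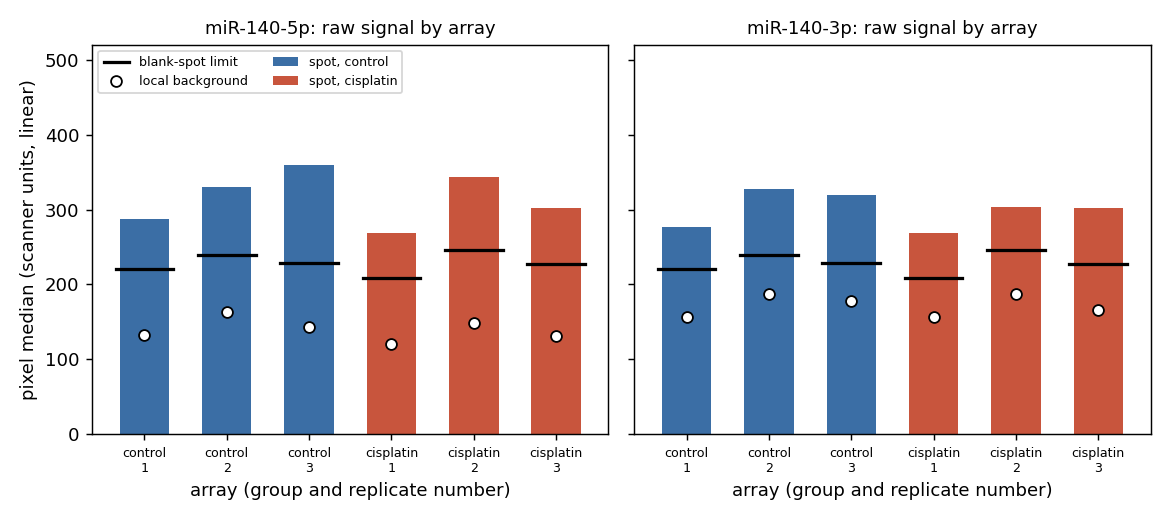
Raw pixel median (scanner units, linear) of the miR-140-5p and miR-140-3p spots on each of the 3 control and 3 cisplatin arrays (bars), with the blank-spot limit of the array (line) and the local background of the spot (circle). All 12 bars stand above the limit, by 1.23 to 1.57 times, and the bars of the groups overlap for both arms.

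The margin above the blanks was narrow and similar for both arms. The signal was 1.29 to 1.57 times the limit for miR-140-5p and 1.23 to 1.40 times for miR-140-3p. The highest ratio, 1.57, was that of miR-140-5p in control replicate 3, which also had the largest difference within a pair. Within 1 spot the pixels had an SD of 70.6 to 96.5 for the 5p arm and 64.7 to 116.8 for the 3p arm, a spread over single pixels that is not the error of the spot's median. The differences between the group means were -20.7 and -16 units. For miR-140-5p the mean raw signal was 325.7 ± 35.7 without and 305 ± 37.6 with cisplatin (SD, n = 3 each). For miR-140-3p it was 307.7 ± 26.9 and 291.7 ± 19.7 (SD, n = 3 each). In raw signal the difference of each arm was thus smaller than the SD of its control arrays.

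The local background differed between the spots of the arms. Around the miR-140-5p spot it was 133, 163 and 143 in control and 120, 149 and 131 in cisplatin arrays, 21 to 27 units below the median background of the array. Around the miR-140-3p spot it was 157, 187 and 178 in control and 156, 187 and 166 in cisplatin arrays, 3 to 15 units above that median. In each pair the background of the 5p spot was lower after cisplatin (differences of -12 to -14 units), whereas that of the 3p spot was lower in 2 of 3 pairs. The part of these backgrounds in the differences was not tested. With the local background subtracted and no normalization, the group means differed by -7.7 units for the 5p and -11.7 for the 3p arm. In raw signal they differed by -20.7 and -16 units. The cisplatin mean was then 95.7% of the control mean for the 5p and 91.3% for the 3p arm, against 93.7% and 94.8% in raw signal. After normalization, the log2 differences without any background correction were -0.16 for the 5p and -0.13 for the 3p arm, against -0.22 for each with it.

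The spots next to the members had mostly faint signals. The 5 spots around miR-140-5p held no tested probe, and their signals stayed at or below 247. Each of them was dimmer in cisplatin than in control arrays on average, as miR-140-5p was. Their group means were 216.7 to 230.3 in control and 201.3 to 217 in cisplatin arrays. Of the 8 spots around miR-140-3p, 3 held tested probes, miR-181a-5p (309 to 372), miR-34a-5p (280 to 369) and miR-103a-3p (2074 to 3339). These neighbours were brighter in cisplatin than in control arrays on average in raw signal, opposite to miR-140-3p, with log2 differences after normalization of 0.06 (SE 0.12) for miR-181a-5p, 0.31 (SE 0.083) for miR-34a-5p, a target of p53, and 0.10 (SE 0.063) for miR-103a-3p. That of miR-181a-5p turned to -7.2e-04 when arrays were scaled to spike spots. The untested spots around miR-140-3p were dimmer in cisplatin arrays on average, like miR-140-3p, but for the spot with means of 215.7 in control and 223 in cisplatin arrays.

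After background correction and quantile normalization, both arms stood lower in all 3 cisplatin arrays than in any control array. The log2 level of miR-140-5p was 7.73, 7.76 and 7.97 in control and 7.54, 7.69 and 7.55 in cisplatin replicates 1, 2 and 3. Control replicate 3 was the highest, and the gap between the groups was narrow, from 7.69 to 7.73. The log2 level of miR-140-3p was 7.39, 7.53 and 7.45 in control and 7.23, 7.22 and 7.26 in cisplatin replicates 1, 2 and 3. The cisplatin values of this arm lay close together and below all the control values. Lower values without overlap between the groups were seen for 10.2% of tested probes in normalized levels and for 3.4% in raw signal. Since these arms were chosen with this contrast known, nothing is read from their place in those shares.

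**Figure D2:**
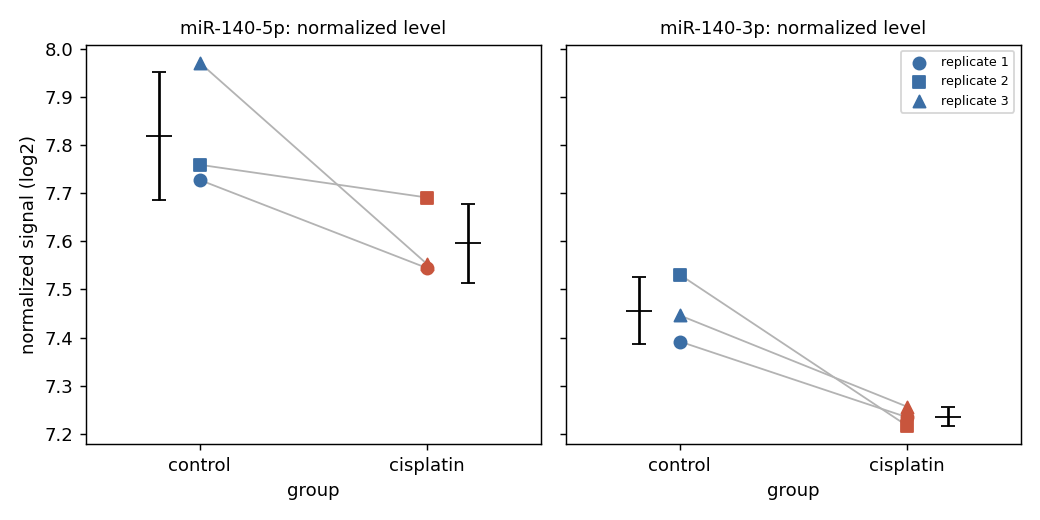
Normalized log2 signal of miR-140-5p and miR-140-3p in control and cisplatin arrays, with a symbol for each replicate number, grey lines between same-numbered arrays, and the mean with SD (n = 3) beside each group. All 6 lines slope down, from -0.07 to -0.42 for the 5p arm and from -0.16 to -0.31 for the 3p arm.

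The size of the difference was nearly equal in the arms. miR-140-5p averaged 7.82 ± 0.13 without and 7.60 ± 0.082 with cisplatin (log2, SD, n = 3 each), a difference of -0.22 (SE 0.087, 95% interval -0.44 to -0.0060). miR-140-3p averaged 7.46 ± 0.070 and 7.24 ± 0.020 (SD, n = 3 each, log2), a difference of -0.22 (SE 0.054, 95% interval -0.36 to -0.084). These correspond to 85.7% (73.7% to 99.6%) and 85.8% (78.1% to 94.3%) of the control level on the corrected and normalized scale. Those intervals came from the fit without pairing, and its tested probes included some of fixed rank, which normalization left without spread. Leaving out probes of fixed rank gave an SE of 0.103 for the 5p and 0.087 for the 3p arm. With replicate number as a block the SE was 0.088 for the 5p and 0.054 for the 3p arm. In both of these fits a 95% interval would include 0 for the 5p arm but not for the 3p arm. In raw signal the cisplatin mean was 93.7% of the control mean for the 5p and 94.8% for the 3p arm. The log2 differences were larger with plain background subtraction (-0.27 for the 5p and -0.28 for the 3p arm). They were smaller without normalization (-0.09 for the 5p and -0.15 for the 3p arm). Neither arm passed the threshold over all 324 tested probes (limma adjusted p = 0.310 for the 5p and 0.129 for the 3p arm). In that fit 0.309% of tested probes passed, which is 1 probe, miR-1304-3p, named here after its value was seen, and it was higher after cisplatin. The mean log2 level of miR-1304-3p in control arrays was low, at 6.12. Among the 243 probes detected on all 6 arrays, 0 passed. When the fit took the numbers as a block, 0 probes passed (57 at an unadjusted limma p under 0.05), and the adjusted p was 0.322 for the 5p and 0.185 for the 3p arm. The number of arrays limits the precision of both values.

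The arms differed in which pair carried the difference. Between same-numbered arrays the normalized log2 difference of miR-140-5p was -0.18, -0.07 and -0.42 for numbers 1, 2 and 3. That of miR-140-3p was -0.16, -0.31 and -0.19. The largest difference was in number 3 for the 5p arm and in number 2 for the 3p arm. The file headers give each array a Cell number, 3, 1 and 3 for control and 4, 2 and 4 for cisplatin replicates 1, 2 and 3, so Cell number and group cannot be told apart. Between Cells 1 and 2, which held replicate 2, the difference was -0.07 for the 5p and -0.31 for the 3p arm, and between Cells 3 and 4 it averaged -0.30 and -0.17. Both arms were thus lower in the cisplatin arrays of either division. Of all tested probes, 20.4% had a lower normalized level after cisplatin in all 3 pairs.

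The rank of a raw signal within its array does not change when the array is scaled. From the brightest of the 2019 human probes, miR-140-3p ranked 162, 142 and 144.5 in control and 172, 176.5 and 172.5 in cisplatin replicates 1, 2 and 3 in raw signal. It ranked lower in every cisplatin array than in any control array. The share of all tested probes with ranks apart in this way was not taken, so nothing is read from it. miR-140-5p ranked 153.5, 140 and 123.5 in control and 172, 148 and 172.5 in cisplatin arrays. Here cisplatin replicate 2 ranked above control replicate 1, so the groups overlapped. Ranks order the spots and not the abundance of the molecules, since each probe binds with its own strength. In cisplatin replicates 1 and 3 the raw signals of the arms were identical, 269 in the former and 302 in the latter.

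Within an array, the 3p level less the 5p level tells whether the arms moved apart. This difference was -0.34, -0.23 and -0.53 in control and -0.31, -0.47 and -0.30 in cisplatin replicates 1, 2 and 3 (log2). Its value in a group has no meaning by itself, as the probes differ, but the groups can be set side by side. It averaged -0.36 ± 0.15 without and -0.36 ± 0.099 with cisplatin (SD, n = 3 each), a difference of 0.0028, far below the spread. Over the 6 arrays the arms had a Pearson r of 0.70 in normalized level and 0.85 in raw signal, both of which include what the arrays share. As deviations from the group means the r was -0.12, with no common movement of the arms to be seen within the groups.

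Other hairpins with both arms measured give the setting for this. Of 25 hairpins with both arms among the tested probes, 12 had a negative difference in both arms, 3 a positive one in both, and 10 had arms on opposite sides. The gap between the arms' differences had a median size of 0.10 and reached 0.45 in miR-21, whose 5p arm stood at 0.38 and 3p arm at -0.07. In the main setting miR-140 had the smallest gap of the 25, at 0.0028, followed by miR-30e at -0.0063. Both arms lower without overlap between the groups were seen for 8% of these hairpins, which are miR-140 and miR-122 (-0.21 for its 5p and -0.37 for its 3p arm), and for both of these the raw signals of the groups overlapped. miR-21, miR-30e and miR-122 are named for their place in this comparison, after their values were seen. How well the gap of miR-140 holds is limited by its own range, from -0.075 without control replicate 3 to 0.074 without control replicate 2. It also depended on the processing. The gap was -0.059 without normalization, with median scaling, with the 75th percentile and with spike spots, and 0.050 with the authors' values.

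**Figure D3:**
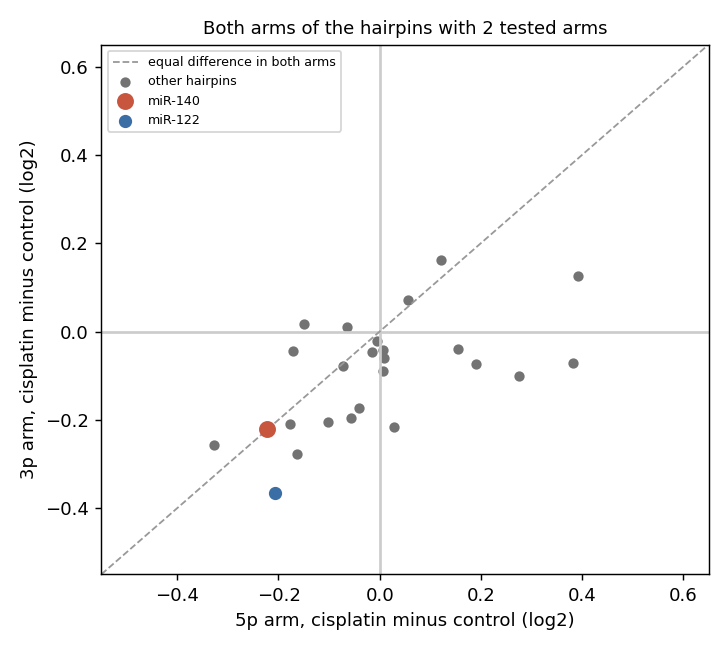
Cisplatin minus control difference (log2, normalized) of the 5p arm (x axis) and of the 3p arm (y axis) for the 25 hairpins with both arms tested, with the dashed line marking equal differences. miR-140 lies on the line at -0.22 and -0.22, and miR-122 below it at -0.21 and -0.37.

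The probes whose levels over the 6 arrays were most like those of miR-140 differed between the arms. For miR-140-5p they were miR-484 (Pearson r 0.96), miR-204-5p (0.95) and miR-30e-3p (0.93), with log2 differences of -0.14 (SE 0.078), -0.18 (SE 0.12) and -0.08 (SE 0.047). All of these were dim, with raw signals of 205 to 290, and miR-484 reached 7.35 in control replicate 3, its highest array as for miR-140-5p. That of miR-30e-3p turned positive without normalization (0.013), with the 75th percentile (0.038) and with the authors' values (0.036). For miR-140-3p they were miR-17-3p (r 0.99), the less studied arm of a miRNA of the miR-17 to miR-92 cluster, miR-3648 (0.99) and miR-122-3p (0.97). Their log2 differences were -0.28 (SE 0.068), -0.24 (SE 0.059) and -0.37 (SE 0.072), and miR-3648 stood at 0.0037 with the 75th percentile. None of these 6 probes passed (limma adjusted p from 0.129 to 0.566). They were picked from 317 probes that vary over the arrays for likeness over 6 arrays that share their normalization, so their r is a description.

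The authors' processed table gave lower means for both arms too, with overlap. In the authors' deposited table the value of miR-140-5p was 92.2, 109.1 and 166.2 in control and 79.7, 133.8 and 99.4 in cisplatin replicates 1, 2 and 3. The value for replicate 2 was again higher after cisplatin. The table's value of miR-140-3p was 81.2, 106.3 and 122.6 in control and 79.7, 93.9 and 99.4 in cisplatin replicates 1, 2 and 3. The cisplatin value was the lower one in all 3 pairs, with differences of -1.48 to -23.2. Fitted on the log2 scale, these values gave -0.22 (SE 0.29) for the 5p and -0.17 (SE 0.23) for the 3p arm.

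Direction was the same under the 21 other settings run, and size was not. The log2 difference of miR-140-3p lay between -0.33 and -0.13 and that of miR-140-5p between -0.27 and -0.068, and neither arm passed under any of them (limma adjusted p from 0.0952 to 0.941 for the 3p and from 0.278 to 0.941 for the 5p arm). The replicate block, the Cell division, moderation, the detection filter and leaving out probes of fixed rank could not change the direction. miR-140-5p was smallest with the 75th percentile (-0.068, SE 0.13) and without normalization (-0.09, SE 0.16). miR-140-3p was smallest with the 75th percentile (-0.13, SE 0.11) and without background correction (-0.13, SE 0.038), and largest with spike spots (-0.33, SE 0.21). The median of all tested probes was itself 0.14 with the authors' values and -0.11 with spike spots, against -0.012 in the main setting. Less the median of each setting, the range was -0.31 to -0.12 for the 3p and -0.36 to -0.14 for the 5p arm. Of the 9 settings that change the values without leaving out an array, the 3p arm was lower in all 3 pairs in 9 and without overlap in 5, and the 5p arm in 4 and 2.

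**Figure D4:**
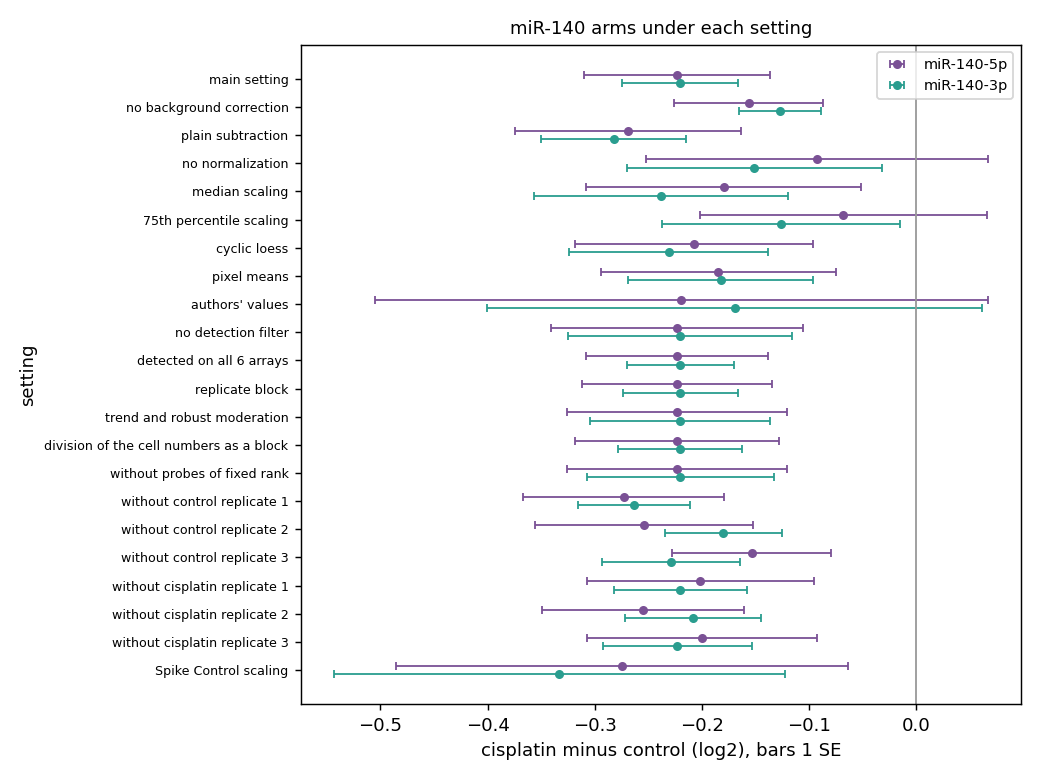
Cisplatin minus control difference (log2) of miR-140-5p and miR-140-3p, with bars of 1 SE, in the main setting and each alternative. All points lie below 0, and the bars of miR-140-5p cross 0 without normalization, with the 75th percentile and with the authors' values, as do those of miR-140-3p with the authors' values.

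Intronic miRNAs of protein-coding hosts, the class to which miR-140 belongs, had 32 of 44 probes tested, of which 0 passed in either direction, 15 were positive and 17 negative, with a median log2 difference of -0.014 against -0.012 over all 324 tested probes, whose 10th and 90th percentiles were -0.21 and 0.23. Their brightest were miR-103a-3p (0.10, SE 0.063) and miR-107 (0.09, SE 0.076), both from introns of PANK genes, and miR-106b-5p (-0.06, SE 0.046), which stood at 0.15 with median scaling. The median of this list changed sign with the setting (-0.11 to 0.16). Over all 324 tested probes, 150 were positive and 174 negative, and 1 passed.

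Other miRNAs known from cartilage had 7 of 10 probes tested and 0 passed, against 1 of all 324 tested. Of the 7, 6 were positive, against 150 of all 324, with a median of 0.14 and a range from -0.09 to 0.26. miR-22-3p stood at 0.16 (SE 0.11), miR-27b-3p at 0.26 (SE 0.059) and miR-455-3p, the other miRNA best known from cartilage, at -0.09 (SE 0.14), which was 0.084 with the 75th percentile. The list's median was positive under all 21 settings (0.021 to 0.47).

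miRNAs known for lower levels in hepatocellular carcinoma, among which the 5p arm has been counted, had 12 of 18 probes tested and 0 passed. Of these, 8 were positive and 4 negative (150 and 174 of all 324 tested), with a median of 0.047. Their brightest were miR-122-5p (-0.21, SE 0.050), miR-26a-5p (0.06, SE 0.079) and miR-125b-5p (0.0071, SE 0.074), and the last turned to -0.030 with cyclic loess and -0.0047 with spike spots. The list's median lay between -3.3e-04 and 0.39 over the settings. On the long arm of chromosome 16, where MIR140 lies, 1 of the 8 other listed probes was tested, miR-138-2-3p (0.26, SE 0.12), and it was above the limit on 3 of 6 arrays. The nearest annotated hairpin to MIR140 is MIR1538, 367213 bases away, whose probe was above the limit on 1 array.

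Of the cell type lists, none had a probe that passed. Of all 324 tested probes, 1 passed, 150 were positive and 174 negative. The liver probes had a median of -0.13, which turned positive under 4 of 21 settings (up to 0.18), and 3 of 4 were negative. Of these, miR-194-5p stood at 0.02 (SE 0.090) and miR-192-5p at -0.06 (SE 0.069), the latter at 0.28 with median scaling. The endothelial, stromal and muscle probes had 4 of 8 tested, 3 positive and 1 negative, and a median of 0.093 (-0.0075 to 0.47 over the settings), with miR-126-3p at 0.05 (SE 0.13, but -0.017 with spike spots), miR-145-5p at 0.14 (SE 0.074), miR-143-3p at 0.17 (SE 0.12) and miR-214-3p, above the limit on 4 arrays and named as the 1 negative probe, at -0.13 (SE 0.16, but 0.43 with the authors' values). Their summed raw signal was 1862 to 2010 in control and 1814 to 2065 in cisplatin arrays.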

How the data were processed

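The scanner files hold linear intensity, per the file headers the pixel medians, means and SD of each spot and its local background, and the authors' deposited table holds intensity that is, on each array, a straight line of the raw foreground (1 constant of 184 to 213 subtracted, 1 factor, largest residual 5.4e-06), with a median of 31 over the listed probes. Neither the scanner nor its software is named in the labels or headers. Foreground and local background medians of all 3200 spots were corrected with normexp (offset 50). The 2019 human probes were quantile-normalized and put on the log2 scale, and fitted with lmFit and eBayes in limma 3.58.1 under R 4.3.3 (4 residual and 1.52 prior degrees of freedom). Tested were the 324 probes above the blank-spot limit on all 3 arrays of at least 1 group, with Benjamini-Hochberg adjustment at 0.05. Quantile normalization and the fit were also run on simulated log2 values with known changes. Background correction and the detection limit were not part of this. The changes put in were larger than those of miR-140, so the simulation does not bear on differences of that size. Figures were drawn with matplotlib 3.10.9.

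The members, lists and settings were chosen with earlier results of these data known. Named probes are the members, up to the 3 brightest tested probes of each list, the 3 probes most like each arm, tested neighbours on the array and any probe with the same bases 2 to 8, of which there was none. miR-203b-5p and miR-6718-5p, which share bases 2 to 7, were added after the data were seen. Deviations from the group means of same-numbered arrays correlated at 0.44, 0.24 and 0.20 over the tested probes, so the labels' numbers were taken to pair the samples. The main fit did not use this pairing, whereas the replicate block did. Control 3 and cisplatin 2 also correlated (0.23), more than the arrays numbered 3 did (0.20). These values therefore do not settle the pairing.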

Additional observations from a re-analysis of the deposited data

How the results depend on the processing

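The number of tested probes that passed was 1. It was 3 without background correction, 4 with median scaling, 3 with the 75th percentile and 4 with cyclic loess. It was 0 without normalization, with pixel means, without a detection filter, with the authors' values, for probes detected on all 6 arrays, with trend and robust moderation, with the replicate block and with Spike Control scaling, where limma gave 33, 34, 97, 27, 39, 38, 57 and 13 probes at an unadjusted p under 0.05. It was 0 to 3 when 1 array was left out, namely 3 without cisplatin replicate 2, and 0 where control replicate 1, 2 or 3 or cisplatin replicate 1 or 3 was left out (42 to 57 probes at an unadjusted limma p under 0.05). Spike Control scaling was chosen after seeing the data. Both arms of miR-140 kept their sign and did not pass under all 21 alternatives, of which the replicate block, the Cell division, moderation, the detection filter and leaving out probes of fixed rank could not move the value. These settings could still change its SE. Leaving out 1 array gave -0.26 to -0.18 for miR-140-3p and -0.27 to -0.15 for miR-140-5p. With the block miR-1304-3p no longer passed, and no other call named here changed.

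Of the 24 other probes refitted under each setting, 13 kept their sign. Values on the other side were, without normalization, 0.36 for miR-192-5p, 0.059 for miR-455-3p, 0.23 for miR-106b-5p and 0.013 for miR-30e-3p. With median scaling they were 0.28 for miR-192-5p and 0.15 for miR-106b-5p. With the 75th percentile they were 0.39 for miR-192-5p, 0.084 for miR-455-3p, 0.26 for miR-106b-5p, 0.038 for miR-30e-3p and 0.0037 for miR-3648. With cyclic loess they were 0.12 for miR-192-5p and -0.030 for miR-125b-5p, and with pixel means -0.0085 for miR-194-5p. With the authors' values they were 0.36 for miR-192-5p, 0.020 for miR-455-3p, 0.21 for miR-106b-5p, 0.036 for miR-30e-3p and 0.43 for miR-214-3p. With Spike Control scaling they were 0.18 for miR-192-5p, -0.017 for miR-126-3p, -0.0047 for miR-125b-5p, 0.050 for miR-106b-5p and -7.2e-04 for miR-181a-5p. When 1 array was left out the ranges were -0.033 to 0.090 for miR-194-5p, -0.087 to 0.0065 for miR-192-5p, -0.084 to 0.17 for miR-126-3p, -0.22 to 0.042 for miR-455-3p, -0.010 to 0.12 for miR-26a-5p and -0.063 to 0.056 for miR-125b-5p. The cause of these changes was not tested. Both arms lay close to the blank-spot limit, so signal over background limits what could be resolved.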
